A study of Mus musculus with 17 samples.

Results

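The genes followed here in the ageing mouse hippocampus, 10 in number, mark the steps from oligodendrocyte precursor to newly formed oligodendrocyte. The list was given by name: Pdgfra, Cspg4, Vcan and Lhfpl3 for precursors, Olig2 for the whole lineage, Gpr17, Neu4 and Bmp4 for committed cells, and Enpp6 and Bcas1 for newly formed oligodendrocytes. Of these 10 genes, 9 were matched to 1 of the 38355 identifiers in the count files, and all 9 passed the filter on low counts in both comparisons. The expression of Lhfpl3 was not analysed here, because its symbol matched no identifier in the count files. The hippocampi were dissected by hand from wild-type C57BL/6J mice that received no treatment, and polyA RNA was sequenced in 17 libraries. Mice of 24 months (24M, 6 libraries) were compared with mice of 3 months (3M, 5 libraries) in single-end libraries. Mice of 29 months (29M, 3 libraries) were compared with mice of 3 months (3 libraries) in paired-end libraries. The labels do not say whether the single-end and paired-end 3M libraries came from the same mice. The oldest mice had been bought aged and held on in the study's own animal rooms. Age and library type vary together between both comparisons, so a difference between 24M and 29M cannot be told apart from a difference between the library types.

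Oligodendrocyte precursors persist in the adult brain, divide slowly and carry the PDGF receptor alpha (Pdgfra) and the NG2 proteoglycan (Cspg4). A precursor that commits to differentiation loses these surface proteins and passes through a short stage marked by the G protein-coupled receptor GPR17, which restrains further maturation. Cells that leave this stage switch on genes such as Enpp6 and Bcas1 before they settle as myelinating oligodendrocytes.

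Levels are given as CPM, the counts of a gene per 1e+06 counts of the library, after TMM scaling, a correction for library composition. Libraries held 9213474 to 28438296 counts on genes, and the 9 genes had between 27 counts (Bmp4, 29M) and 3335 counts (Bcas1, 24M) in a library. The 24M replicates 1 and 4 differed by less than the counting noise and were averaged as 1 sample, which leaves 5 samples at 24M. The 3M single-end replicate 4 stood apart with a sum of 589 CPM over 8 striatal markers, against 136 to 207 CPM in the other 3M single-end libraries. In the 3M paired-end replicate 1 and the 29M replicate 2, the gene Gm42418 took 2.40% and 4.59% of the counts, against at most 0.232% in the other libraries. The sum of 8 neuron markers lay between 11728 and 14662 CPM in all samples. These are markers of neurons and not of the hippocampus, so the sum does not check which brain region was taken.

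Gpr17 was the only one of the 9 measured genes that passed the test, and at both ages its level was close to 0.5 of that at 3M (0.501 at 24M and 0.517 at 29M). A gene counted as called when edgeR's quasi-likelihood test gave a Benjamini-Hochberg adjusted p no higher than 0.05 and its log2 fold change was 0.5 or more in size. At 24M, 1 of 9 was called lower, where 0.638% of the 15683 genes tested were, and 0 of 9 was called higher, where 1.34% of all were. At 29M, again 1 of 9 was called lower, where 0.113% of 15097 genes were, and 0 of 9 higher, where 1.34% of all were. The median log2 fold change of the 9 genes was 0.06 at 24M and −0.07 at 29M, beside −0.0032 and −0.0021 over all genes tested. An unadjusted p under 0.05 was reached by 4 of 9 genes at 24M (26.1% of all genes) and by 2 of 9 at 29M (17.3% of all genes). Beside Gpr17 these were Bcas1 at both ages and Vcan and Neu4 at 24M, whose 95% intervals left out 0 although their adjusted p did not pass.

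Gpr17 lies on chromosome 18, on the minus strand. In the 3M single-end samples its level was 59.0, 51.6, 61.2, 46.2 and 57.9 CPM, and at 24M it was 30.8, 26.2, 28.3, 30.7 and 22.7 CPM. In the 3M paired-end samples it was 56.7, 55.2 and 53.5 CPM, and at 29M it was 24.5, 30.5 and 30.4 CPM. All aged samples lay below all 3M samples, and even the highest aged sample (30.8 CPM) was well under the lowest 3M sample (46.2 CPM). Groups that do not overlap, in either direction, were found for 6.57% of all genes at 24M and 22.4% at 29M. In single-end libraries the mean was 55.2 ± 6.17 CPM at 3M and 27.8 ± 3.39 CPM at 24M (SD, n = 5 each), and the log2 fold change was −0.997 (SE 0.09, 95% interval −1.20 to −0.79, edgeR adjusted p = 0.000109). In paired-end libraries it was 55.1 ± 1.61 CPM at 3M and 28.5 ± 3.47 CPM at 29M (SD, n = 3 each), and the log2 fold change was −0.95 (SE 0.08, 95% interval −1.12 to −0.78, edgeR adjusted p = 2.79e-05). Among the genes called lower, Gpr17 had the smallest p in both comparisons, of 100 genes at 24M and of 17 genes at 29M.

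Several other measurements bear on this fall. The lowest 3M value of Gpr17 was in the library with the high striatal sum, and without that library the log2 fold change at 24M was −1.05 (edgeR adjusted p = 7.27e-05). Without the 29M replicate 2 it was −1.001 at 29M (edgeR adjusted p = 4.55e-05), and without the 3M paired-end replicate 1 it was −0.93 (edgeR adjusted p = 8.31e-05). Lims2 overlaps Gpr17 on the opposite strand and shares 188 bases of exon with it, 3.62% of the exon bases of Gpr17. Its level was 9.10 ± 1.05 CPM in the 3M single-end samples and 8.24 ± 1.43 CPM at 24M (SD, n = 5 each), and 9.41 ± 0.65 CPM and 7.91 ± 0.29 CPM in the paired-end samples (SD, n = 3 each). Lims2 did not pass the test at either age (edgeR adjusted p = 0.460 and 0.262). Since these are bulk samples, fewer cells at the Gpr17 stage and less Gpr17 RNA in each cell cannot be told apart.

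**Figure D1:**
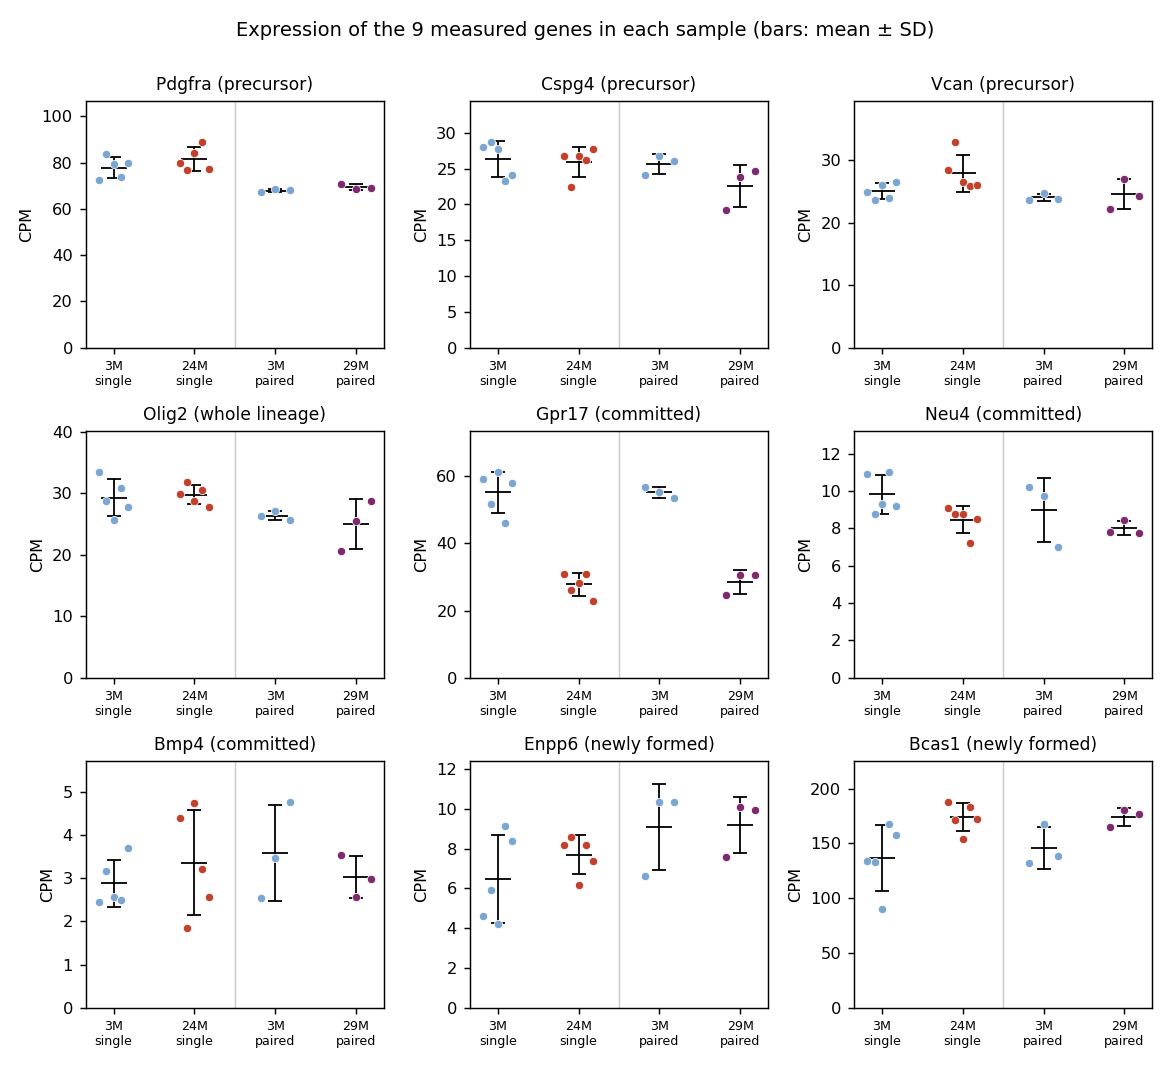
CPM of the 9 measured genes in each sample (y axis, starting at 0) by age and library type (x axis); points are samples, the long tick is the mean and the bars show the SD. For Gpr17 the aged samples sit between 22.7 and 30.8 CPM and the 3M samples between 46.2 and 61.2 CPM, while the groups overlap for each of the other 8 genes.

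The 3 measured precursor genes did not pass the test at either age. Pdgfra (chromosome 5, 75152292 to 75198215, plus strand, GRCm38) encodes the receptor through which PDGF drives precursors to divide. Its level was 72.5, 83.9, 79.2, 73.8 and 79.7 CPM in the 3M single-end samples and 80.0, 76.6, 84.3, 88.8 and 77.3 CPM at 24M. The 3M paired-end samples had 67.1, 68.6 and 68.1 CPM and the 29M samples 70.7, 68.5 and 69.2 CPM. The groups overlapped at both ages, with the lowest 29M sample just under the highest 3M one. The log2 fold changes were 0.06 (95% interval −0.06 to 0.19, edgeR adjusted p = 0.512) and 0.03 (−0.07 to 0.13, edgeR adjusted p = 0.787). As fold changes these intervals ran from 0.959 to 1.14 at 24M and from 0.952 to 1.10 at 29M.

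Cspg4 (chromosome 9, 56865033 to 56899870, plus strand) encodes NG2, a membrane proteoglycan of precursors that pericytes also carry. It was measured at 28.01, 28.7, 27.7, 23.2 and 24.2 CPM in the 3M single-end samples and at 26.7, 22.4, 26.7, 26.1 and 27.7 CPM at 24M. At 3M the paired-end samples had 24.0, 26.8 and 26.0 CPM, and at 29M they had 19.3, 23.8 and 24.7 CPM. The groups overlapped at both ages, and 1 of the 29M samples stood below the rest. Log2 fold changes were −0.03 (95% interval −0.20 to 0.14, edgeR adjusted p = 0.862) and −0.18 (−0.38 to 0.02, edgeR adjusted p = 0.332).

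Vcan (chromosome 13, 89655312 to 89742509, minus strand) encodes versican, a large chondroitin sulphate proteoglycan of the lectican family. Its levels were 24.9, 23.6, 26.1, 23.9 and 26.5 CPM in the 3M single-end samples and 28.4, 32.9, 26.5, 25.8 and 26.0 CPM at 24M. The paired-end samples had 23.6, 24.7 and 23.8 CPM at 3M and 22.2, 27.0 and 24.3 CPM at 29M. The 24M replicate 3 was the highest of all samples, and the groups overlapped at both ages. The log2 fold change was 0.16 at 24M (95% interval 0.002 to 0.32, edgeR adjusted p = 0.187) and 0.02 at 29M (−0.15 to 0.19, edgeR adjusted p = 0.917).

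Pdgfra, Cspg4 and Vcan are also made by cells of the vessel wall and the meninges. The sum of 8 mural cell markers was 197 to 246 CPM in the 3M single-end samples and 249 to 305 CPM at 24M, and 223 to 245 CPM and 187 to 244 CPM in the paired-end groups. All 24M samples lay above all 3M single-end samples in this sum. Its largest part was Rgs5, with a mean of 99.9 CPM in the 3M single-end samples and 132 CPM at 24M. The sum of 8 fibroblast and meningeal markers was 337 to 452 CPM and 317 to 566 CPM in the single-end groups, and 324 to 450 CPM and 349 to 414 CPM in the paired-end groups. Of these 8 fibroblast and meningeal genes, 5 had a log2 fold change above 0 at 24M and 3 below it. Lum and Ogn, both small leucine-rich proteoglycans, were called higher at 24M (log2 fold changes 0.85 and 0.96, edgeR adjusted p = 0.0306 and 0.0226). Col3a1, Col1a1 and Col1a2, which encode collagens, had −0.80, −0.42 and −0.10 at 24M and did not pass (edgeR adjusted p = 0.107, 0.239 and 0.802). At 29M Lum and Ogn had −0.04 and 0.21 (edgeR adjusted p = 0.958 and 0.663). The call of Lum at 24M was lost without the 3M single-end replicates 1 or 4 or the 24M replicates 2, 5 or 6 (edgeR adjusted p = 0.0530 to 0.0884), and that of Ogn without the 3M single-end replicate 1 or the 24M replicate 2 (edgeR adjusted p = 0.0511 and 0.0687). No mural marker was called at either age. Rgs5, a mural marker, passed the adjusted p at 24M and missed the fold threshold (log2 fold change 0.40, edgeR adjusted p = 0.0175). All its 24M samples lay above all its 3M single-end samples. At 29M Rgs5 had −0.12 (edgeR adjusted p = 0.260). Of the 8 mural genes, 6 had a log2 fold change above 0 at 24M and 2 below it. The part of mural, fibroblast and meningeal cells in the 3 genes was not tested.

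Olig2 (chromosome 16, 91225457 to 91228677, plus strand), the basic helix-loop-helix factor expressed through the whole lineage, did not pass the test at either age. It was measured at 33.5, 28.8, 25.7, 30.9 and 27.7 CPM in the 3M single-end samples and at 29.9, 31.9, 28.8, 30.5 and 27.9 CPM at 24M. The paired-end values were 26.3, 27.1 and 25.7 CPM at 3M and 20.7, 25.6 and 28.8 CPM at 29M. The 24M samples all lay within the range of the 3M samples, and the 29M samples spread to both sides of it. The log2 fold changes were 0.02 (95% interval −0.13 to 0.18, edgeR adjusted p = 0.871) and −0.07 (−0.29 to 0.14, edgeR adjusted p = 0.766).

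The other 2 genes of committed cells did not pass the test. Neu4 (chromosome 1, 94020451 to 94028334, plus strand) encodes a sialidase, an enzyme that removes sialic acid from glycans. Its levels were 10.9, 8.78, 9.29, 11.0 and 9.19 CPM in the 3M single-end samples and 9.10, 8.76, 8.77, 7.20 and 8.48 CPM at 24M. In the paired-end samples they were 10.2, 9.75 and 7.01 CPM at 3M and 7.82, 8.47 and 7.77 CPM at 29M. The groups overlapped at both ages, and the 3M samples reached higher in both library types. The log2 fold changes were −0.21 (95% interval −0.42 to −0.002, edgeR adjusted p = 0.188) and −0.18 (−0.48 to 0.13, edgeR adjusted p = 0.571).

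Bmp4 (chromosome 14, 46383520 to 46390669, minus strand) encodes a secreted ligand of the TGF-beta superfamily that holds precursors back from maturation. It was the gene with the fewest counts, at 2.46, 3.17, 2.58, 2.497 and 3.71 CPM in the 3M single-end samples and 4.40, 1.86, 4.75, 3.23 and 2.57 CPM at 24M. The paired-end samples had 2.55, 3.47 and 4.77 CPM at 3M and 3.53, 2.57 and 2.98 CPM at 29M. The 24M samples lay on both sides of the 3M range. The log2 fold changes were 0.22 (95% interval −0.28 to 0.72, edgeR adjusted p = 0.584) and −0.23 (−0.74 to 0.27, edgeR adjusted p = 0.666), with the widest intervals of the 9 genes. As fold changes they ran from 0.821 to 1.65 at 24M and from 0.599 to 1.21 at 29M.

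The 2 genes of newly formed oligodendrocytes did not pass the test at either age. Enpp6 (chromosome 8, 46986887 to 47096762, plus strand) encodes a choline-specific phosphodiesterase that is switched on as precursors differentiate. Its levels were 4.64, 5.92, 4.20, 9.12 and 8.40 CPM in the 3M single-end samples and 8.19, 8.61, 6.16, 8.17 and 7.37 CPM at 24M. In the paired-end samples they were 6.62, 10.3 and 10.3 CPM at 3M and 7.57, 10.1 and 9.95 CPM at 29M. The 3M single-end samples spread so widely that the 24M samples all lay inside their range. Log2 fold changes were 0.26 (95% interval −0.17 to 0.69, edgeR adjusted p = 0.432) and 0.01 (−0.35 to 0.37, edgeR adjusted p = 0.988).

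Bcas1 (chromosome 2, 170346991 to 170427845, minus strand), a gene of early myelinating oligodendrocytes, had the highest counts of the 9. Its levels were 134, 133, 90.3, 168 and 158 CPM in the 3M single-end samples and 188, 172, 154, 184 and 172 CPM at 24M. In the paired-end samples they were 132, 168 and 138 CPM at 3M and 165, 181 and 177 CPM at 29M. At 24M 4 of 5 samples, and at 29M 2 of 3, lay above all 3M samples of their library type, and the groups overlapped at both ages. The log2 fold change was 0.35 at 24M (SE 0.13, 95% interval 0.07 to 0.62, edgeR adjusted p = 0.107) and 0.25 at 29M (SE 0.07, 95% interval 0.10 to 0.40, edgeR adjusted p = 0.0817), neither of which passed the test. At 29M the adjusted p fell below 0.05 in edgeR without the 3M paired-end replicate 2 (0.00263), with no filter on low counts (9.44e-07) and with the replicate number as a block (0.00944). The adjusted p of Bcas1 at 29M was 0.460 in DESeq2 and 0.644 in the edgeR fit of all 4 groups. Without the filter the edgeR adjusted p of Gpr17 at 29M fell too, from 2.79e-05 to 8.81e-35. The log2 fold change of Bcas1 stayed under the threshold of 0.5 in all of these.

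The lowest and highest 3M values of Enpp6 and Bcas1 were in the libraries with the least and the most mature oligodendrocyte RNA. The sum of 15 genes of mature oligodendrocytes was lowest in the 3M single-end replicate 3 (4729 CPM), which also had the lowest Enpp6 (4.20 CPM) and Bcas1 (90.3 CPM) of its group. It was highest in the 3M single-end replicate 4 (8227 CPM), which had the highest of both (9.12 and 168 CPM). In the paired-end libraries the lowest sum was in the 3M replicate 1 (5254 CPM), again with the lowest Enpp6 (6.62 CPM) and Bcas1 (132 CPM). The sum of 6 choroid plexus markers was also lowest in the 3M single-end replicate 3 (2033 CPM, against 4869 to 8422 CPM in the others of its group). Gpr17 was ordered otherwise, since the 3M single-end replicate 3 had its highest value and replicate 4 its lowest. The sums ranged over 4729 to 8227 CPM at 3M and 6821 to 7941 CPM at 24M in single-end libraries, and over 5254 to 7355 CPM at 3M and 6551 to 7301 CPM at 29M in paired-end libraries. How far this amount sets the levels of Enpp6 and Bcas1 was not tested.

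**Figure D2:**
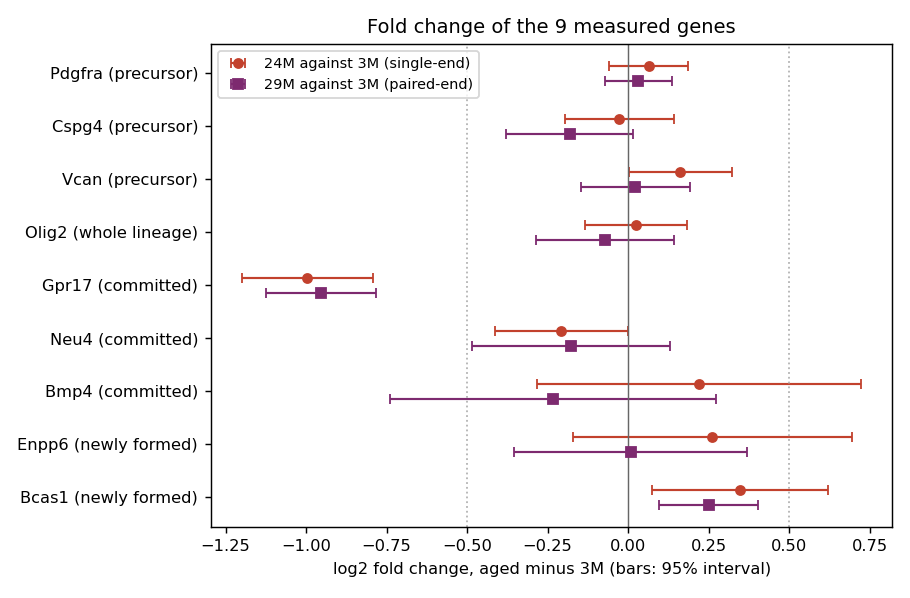
Log2 fold change of each gene, aged minus 3M (x axis), for the 9 measured genes (y axis, by stage); circles are 24M against 3M, squares are 29M against 3M, bars are 95% intervals and dotted lines mark 0.5 in each direction. The intervals of Gpr17 end at −0.79 and −0.78, and those of the other 8 genes begin at −0.42 or above at 24M and at −0.74 or above at 29M.

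Beside Gpr17, the log2 fold changes of the other 8 genes ranged from −0.21 to 0.35 at 24M and from −0.23 to 0.25 at 29M. The interval of Gpr17 lay below the intervals of 8 of these 8 genes in both comparisons. The closest was Neu4 at 24M, with a lower bound of −0.42, and Bmp4 at 29M, with a lower bound of −0.74. For Gpr17 the effect at 29M differed from that at 24M by 0.04 on the log2 scale (95% interval −0.27 to 0.35, edgeR adjusted p = 0.951). For the other 8 genes this difference ranged from −0.46 to 0.03 (edgeR adjusted p = 0.694 to 0.967). The edgeR test of this difference called 0% of 16055 genes (0 genes), with 1674 genes at an unadjusted p under 0.05, and DESeq2 also called 0.

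Ratios of 2 genes within a library do not depend on how libraries are scaled, and 4 of them were compared by an exact two-sided permutation test over samples (8 tests, Benjamini-Hochberg adjusted). The ratio of Gpr17 to Pdgfra was 0.615 to 0.814 in the 3M single-end samples and 0.294 to 0.385 at 24M, so the groups did not overlap. The mean log2 ratio went from −0.50 ± 0.18 to −1.56 ± 0.14 (SD, n = 5 each), a difference of −1.06 (exact permutation p = 0.00794, the smallest this design allows, adjusted p = 0.0317). In the paired-end samples this ratio was 0.786 to 0.846 at 3M and 0.346 to 0.446 at 29M, a log2 difference of −0.99 (exact permutation p = 0.1, the smallest that 3 against 3 samples allow, adjusted p = 0.16).

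Against Olig2 the result was alike. Both ratios hold the same Gpr17 values, whose groups already lay apart, so they add no support independent of the test of Gpr17. The ratio of Gpr17 to Olig2 was 1.495 to 2.38 at 3M and 0.8155 to 1.03 at 24M in CPM, a log2 difference of −1.02 (exact permutation p = 0.00794, adjusted p = 0.0317). With paired-end reads it was 2.04 to 2.15 at 3M and 1.06 to 1.19 at 29M, a log2 difference of −0.87 (exact permutation p = 0.1, adjusted p = 0.16). The ratio of Enpp6 to Olig2 overlapped between the groups at both ages, with log2 differences of 0.29 (exact permutation p = 0.278, adjusted p = 0.317) and 0.12 (exact permutation p = 0.9, adjusted p = 0.9). The ratio of Bcas1 to Olig2 had log2 differences of 0.35 at 24M (exact permutation p = 0.0476, adjusted p = 0.127) and 0.35 at 29M (exact permutation p = 0.2, adjusted p = 0.267), with overlapping groups.

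**Figure D3:**
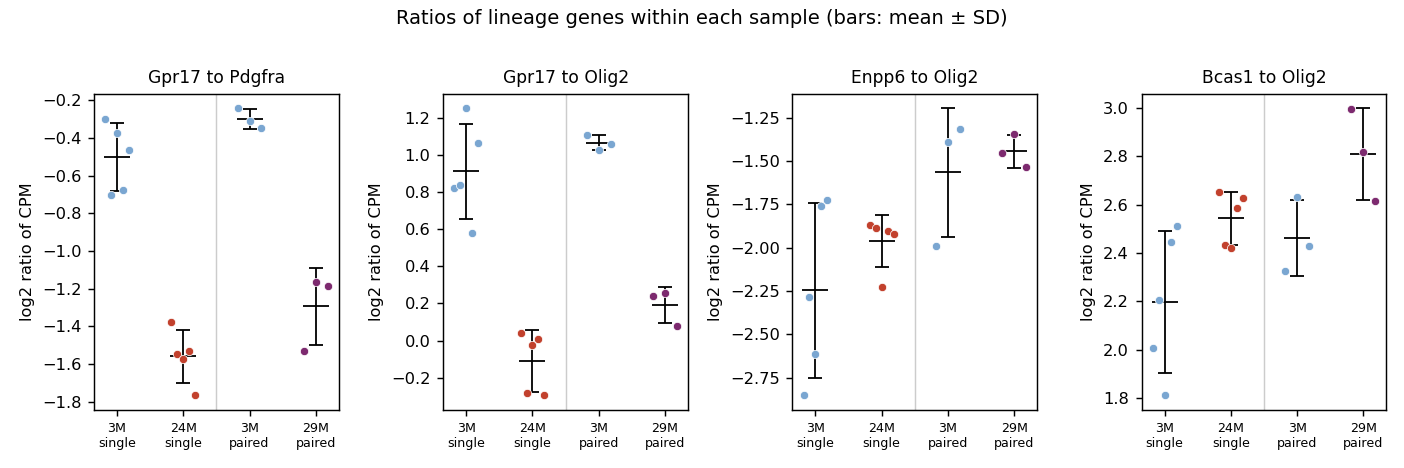
Log2 ratio of the CPM of 2 genes in each sample (y axis) for the 4 ratios, by age and library type (x axis); points are samples, the long tick is the mean and the bars show the SD. The ratios of Gpr17 to Pdgfra and to Olig2 fall apart into 3M and aged samples, and those of Enpp6 and Bcas1 to Olig2 overlap.

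Levels of different genes were compared as CPM per kilobase of exon. The length was the union of all annotated exons of a gene, which can differ from the length of the transcripts expressed. In the 3M single-end samples Bcas1 led with 36.2 ± 7.96, followed by Olig2 with 11.6 ± 1.18, Gpr17 with 10.6 ± 1.19 and Pdgfra with 7.76 ± 0.46 CPM per kilobase (SD, n = 5). Olig2 and Gpr17, neighbours in this order, did not differ beyond their spread. Cspg4 (2.21 ± 0.21), Neu4 (2.12 ± 0.23) and Vcan (1.73 ± 0.09) came next, and Bmp4 (1.28 ± 0.24) and Enpp6 (1.01 ± 0.34) were lowest, with overlapping spreads within the last pair and between Cspg4 and Neu4. At 24M Gpr17 had 5.34 ± 0.65 CPM per kilobase (SD, n = 5) and stood below Pdgfra with 8.12 ± 0.51. In the paired-end samples Gpr17 likewise stood above Pdgfra at 3M (10.6 ± 0.31 against 6.77 ± 0.08) and below it at 29M (5.48 ± 0.67 against 6.93 ± 0.11 CPM per kilobase, SD, n = 3). The order of these 2 genes at 3M depends on the lengths used, 5.195 kilobases for Gpr17 and 10.024 for Pdgfra. Without division by length, the 3M mean of Gpr17 was below that of Pdgfra (55.2 against 77.8 CPM single-end, 55.1 against 67.9 CPM paired-end).

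Other genes of the lineage were counted in lists by stage. Of 16 genes listed as other precursor genes, among them Olig1, Sox10, Ptprz1 and Cspg5, 0 were called in edgeR at either age. How far cells of other stages or types make these genes was not tested. Cacng4, a subunit that accompanies AMPA receptors, at 24M (log2 fold change −0.37, edgeR adjusted p = 0.0402) and Tnr, the matrix protein tenascin-R, at 29M (−0.31, edgeR adjusted p = 0.00570) passed the adjusted p and missed the fold threshold. At 24M 14 of the 16 had a log2 fold change below 0 (median −0.13), and at 29M 9 of 16 (median −0.05), beside medians of −0.0032 and −0.0021 over all genes. Of 12 other newly formed oligodendrocyte genes tested, 6 had a log2 fold change below 0 at 24M and 8 at 29M (medians −0.05 and −0.04). Of these 12, 1 was called lower at 24M and 0 at 29M. That gene was Kif19a, which encodes a kinesin, with 4.64 ± 0.59 CPM at 3M and 2.76 ± 0.42 CPM at 24M (SD, n = 5 each), a log2 fold change of −0.74 (edgeR adjusted p = 0.0151). At 29M its log2 fold change was −0.17 (edgeR adjusted p = 0.643).

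Of 15 genes of mature oligodendrocytes, 1 was called higher at 24M, 0 were called at 29M, and the medians were 0.14 and 0.09. The gene was Aspa, the aspartoacylase of oligodendrocytes, with 18.5 ± 5.84 CPM at 3M and 29.2 ± 2.47 CPM at 24M (SD, n = 5 each), a log2 fold change of 0.66 (edgeR adjusted p = 0.0389). This call was lost in 8 of 21 alternatives, among them leaving out the 3M single-end replicates 1, 2 or 3 or the 24M replicates 2, 3 or 6 (edgeR adjusted p = 0.0580 to 0.0981). At 29M Aspa had a log2 fold change of 0.33 (edgeR adjusted p = 0.0735). Ermn, also of mature cells, passed the adjusted p at 29M and missed the fold threshold (log2 fold change 0.41, edgeR adjusted p = 0.0170).

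**Figure D4:**
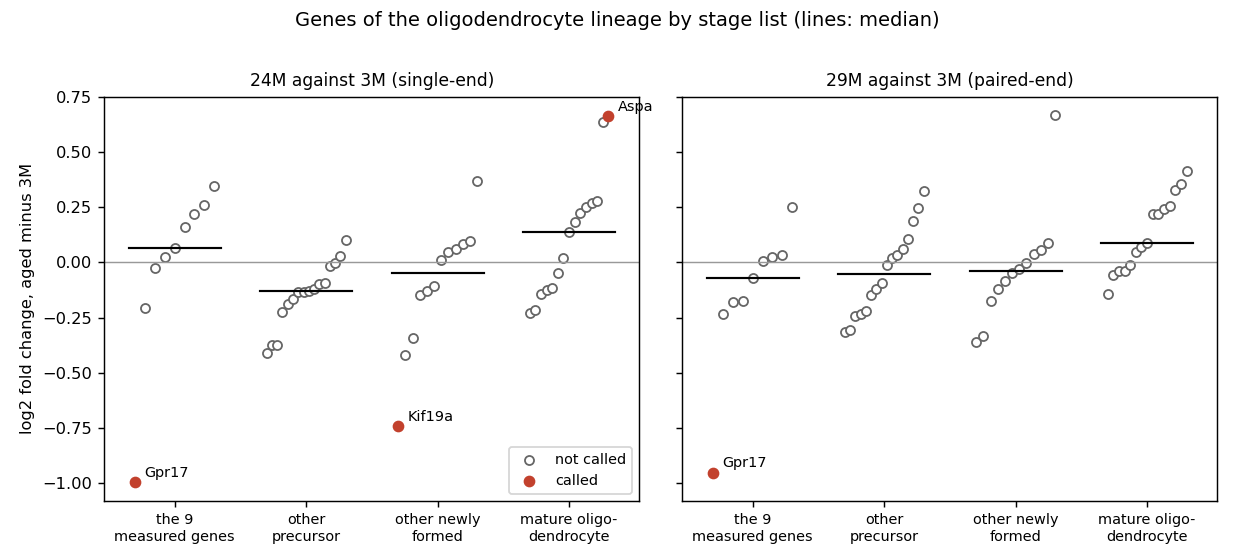
Log2 fold change of each tested gene, aged minus 3M (y axis), in 4 lists of the oligodendrocyte lineage (x axis), at 24M (left) and 29M (right); filled points passed the test and lines are medians. Gpr17 is the lowest point in both panels, Kif19a and Aspa are the other genes called at 24M, and no other gene is called at 29M.

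Genes that work with the listed ones were counted in the same way. Of 6 other genes of the PDGF family, 0 were called in edgeR at either age (medians −0.09 and −0.01). The ligand Pdgfa, which acts on the receptor Pdgfra, was at 35.8 ± 2.85 CPM at 3M and 33.6 ± 1.32 CPM at 24M (SD, n = 5 each, edgeR adjusted p = 0.360). At 29M its log2 fold change was −0.01 (edgeR adjusted p = 0.949). The ligand Pdgfb had log2 fold changes of −0.09 and 0.08 (edgeR adjusted p = 0.391 and 0.634).

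For Bmp4, of 10 BMP receptors and transducers 0 were called in edgeR at either age (medians 0.04 and −0.07). The receptor genes Bmpr2 and Bmpr1a had log2 fold changes of −0.05 and 0.24 at 24M (edgeR adjusted p = 0.701 and 0.0617) and of −0.08 and −0.03 at 29M (0.593 and 0.806). Of 12 BMP target and inhibitor genes 0 were called in edgeR at either age, and Id2 and Id4, inhibitors of helix-loop-helix factors, had log2 fold changes of −0.10 and 0.15 at 24M (edgeR adjusted p = 0.450 and 0.367). At 29M Id2 and Id4 had 0.03 and 0.02 (edgeR adjusted p = 0.822 and 0.926). Of 8 genes listed as other BMP ligands, 0 were called at 24M and 1 was called higher at 29M. At 24M the log2 fold change of Bmp3 was −0.62 (edgeR adjusted p = 0.0621), and it was called lower in 7 of 21 alternatives, among them DESeq2 and leaving out the 3M single-end replicate 5 or the 24M replicate 6 (log2 fold changes −0.74 and −0.77). Bmp7 was called higher at 24M without the 24M replicate 3 (0.52), and Bmp1 at 29M without the 3M paired-end replicate 2 (0.51). The gene called at 29M was Bmp6, with 15.3 ± 2.94 CPM at 3M and 22.0 ± 2.09 CPM at 29M (SD, n = 3 each), a log2 fold change of 0.53 (edgeR adjusted p = 0.0341), a call lost in 5 of 14 alternatives, among them leaving out the 3M paired-end replicates 1 and 3 and the 29M replicates 1 and 3 in turn (edgeR adjusted p = 0.0619, 0.0584, 0.146 and 0.154). Bmp1, which encodes a protease, had log2 fold changes of 0.04 and 0.39 (edgeR adjusted p = 0.894 and 0.0572), and the ligand Gdf11 had −0.17 and −0.06 (edgeR adjusted p = 0.144 and 0.706).

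Of the 3 other sialidases, the family of Neu4, 0 were called in edgeR at either age. The lysosomal sialidase Neu1 had log2 fold changes of −0.08 and 0.14 (edgeR adjusted p = 0.327 and 0.196), and Neu3, of the plasma membrane, had −0.05 and 0.14 (edgeR adjusted p = 0.849 and 0.770). Of the ENPP family of Enpp6, 5 genes were tested at 24M, with 4 at 29M, and edgeR called 0 of them. Enpp4 passed the adjusted p at 24M and missed the fold threshold (log2 fold change 0.36, edgeR adjusted p = 0.0175). Enpp2, which encodes autotaxin and is made by oligodendrocytes and by the choroid plexus, was at 3054 ± 1538 CPM at 3M and 3142 ± 492 CPM at 24M (SD, n = 5 each, edgeR adjusted p = 0.948). Enpp5 had log2 fold changes of 0.03 and −0.05 (edgeR adjusted p = 0.732 and 0.465).

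Among the lecticans and link proteins related to Vcan, 1 of 7 genes tested was called higher at 24M and 1 of 6 at 29M, Hapln2 in both. Hapln2 encodes a link protein of the matrix at nodes of Ranvier. Its level was 16.5 ± 4.04 CPM at 3M and 24.2 ± 2.29 CPM at 24M (SD, n = 5 each), and 16.4 ± 1.53 CPM at 3M and 28.1 ± 2.39 CPM at 29M (SD, n = 3 each). The groups did not overlap, with log2 fold changes of 0.55 (edgeR adjusted p = 0.0447) and 0.77 (edgeR adjusted p = 0.000421). The call at 24M was lost in 9 of 21 alternatives, among them leaving out the 3M single-end replicates 1 or 2 or the 24M replicates 2, 3, 5 or 6 (edgeR adjusted p = 0.0502 to 0.0985) or the 3M single-end replicate 3 (log2 fold change 0.43), and that at 29M in 1 of 14, the fit of all 4 groups (edgeR adjusted p = 0.0551). Ncan, the lectican neurocan, was at 284 ± 18.2 CPM at 3M and 227 ± 9.60 CPM at 24M (SD, n = 5 each), with log2 fold changes of −0.32 and −0.27 (edgeR adjusted p = 0.00580 and 0.00188) that missed the fold threshold. Bcan, the lectican brevican, had −0.13 and 0.13 (edgeR adjusted p = 0.235 and 0.108). Of 4 matched genes of the Lhfpl family, 0 were called in edgeR at either age.

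Several markers of newborn neurons were also lower in the aged samples. Of 10 neurogenesis markers, 5 were called lower at 24M and 2 of 9 tested at 29M, with a summed level of 397 to 464 CPM in the 3M single-end samples, 327 to 405 CPM at 24M, 441 to 464 CPM in the 3M paired-end samples and 367 to 390 CPM at 29M, and none of them was at 0 in every sample of a group. Most of this sum was Tubb3, which is also in the list of neuron markers and was not called (249 and 214 CPM in the single-end and 269 and 240.0 CPM in the paired-end groups on average). Without Tubb3 the sums were 180 to 214 CPM and 140 to 181 CPM in the single-end groups, which overlapped, and 168 to 203 CPM and 134 to 140 CPM in the paired-end groups. The genes called were Dcx, Sox11, Igfbpl1, Draxin and Sox4 at 24M (log2 fold changes −0.54, −0.72, −2.07, −2.19 and −0.82) and Eomes and Igfbpl1 at 29M (−2.41 and −2.76). The largest falls were in genes of low level. Draxin had 1.76 ± 0.38 CPM at 3M and 0.37 ± 0.12 CPM at 24M, and Igfbpl1 5.29 ± 1.58 and 1.28 ± 0.59 CPM (SD, n = 5 each). In the paired-end groups Igfbpl1 had 4.47 ± 1.83 and 0.69 ± 0.34 CPM, and Eomes 2.69 ± 2.07 and 0.50 ± 0.28 CPM (SD, n = 3 each). Of the 10, 8 had a log2 fold change below 0 at 24M and 2 above it, Neurod1 (0.39, edgeR adjusted p = 0.0398, which missed the fold threshold) and Calb2 (0.09, edgeR adjusted p = 0.825). At 29M 9 of 9 were below 0. Dpysl3 passed the adjusted p and missed the fold threshold at both ages (−0.38 and −0.44, edgeR adjusted p = 0.00722 and 0.000452). Dcx did so at 29M (−0.35, edgeR adjusted p = 0.0368). Single libraries decided the calls of Dcx (lost without the 3M single-end replicates 4 or 5 or the 24M replicate 2, log2 fold changes −0.49, −0.49 and −0.52), of Sox11 (without the 3M single-end replicates 3 or 4 or the 24M replicates 2 or 3, −0.64 to −0.75) and of Eomes (without any 29M replicate or the 3M paired-end replicates 2 or 3, −1.53 to −2.78). The 8 proliferation markers summed to 7.28 to 10.2 CPM in the 3M single-end samples and 5.88 to 7.85 CPM at 24M, and to 8.07 to 8.7 CPM and 5.6 to 6.81 CPM in the paired-end groups. Of them 4 were tested at 24M and 3 at 29M, and Top2a was called lower at 24M (log2 fold change −0.82, edgeR adjusted p = 0.0434), a call lost in 9 of 21 alternatives, among them leaving out the 3M single-end replicates 1, 2 or 4 or the 24M replicates 2, 3, 4 or 5 (edgeR adjusted p = 0.0606 to 0.0994). The part of these cells in the fall of Gpr17 was not tested.

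Of the remaining markers, Cldn5 of endothelial cells was lower at 24M (log2 fold change −0.60), a call lost without the 3M single-end replicate 1 or the 24M replicates 2 or 3 (−0.47, −0.61 and −0.56). It was the one endothelial marker called, and of the 6 such markers 4 had a log2 fold change above 0 at 24M (median 0.08). Gfap of astrocytes rose at both ages (0.66 and 0.80), as did C1qa of microglia (0.55 and 0.69, at 24M lost without the 3M single-end replicate 5, 0.49). P2ry12 of microglia was called higher at 24M (0.52), lost without the 3M single-end replicates 1, 3 or 4 or the 24M replicates 2, 3 or 6 (0.45 to 0.53). Tmem119 of microglia was called higher at 29M (0.51), lost without the 3M paired-end replicate 3 or the 29M replicates 1 or 3 (0.40 to 0.52). Of the neuron and choroid plexus markers 0 were called in edgeR at either age.

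The genes whose pattern was most like that of Gpr17 were looked up over all 16 samples, after the mean of the 3M group of the same library type had been subtracted. The samples share library type and age, so these correlations are a description. The 5 highest of 14312 genes were Lrp4 (r = 0.95), Dpysl3 (0.92), Ncan (0.92), Ptpro (0.91) and Arhgap35 (0.91). Of these 5, Ptpro, which encodes a receptor tyrosine phosphatase, was called lower at 24M (log2 fold change −0.53, edgeR adjusted p = 0.00106) and missed the fold threshold at 29M (−0.48, edgeR adjusted p = 0.00834). The other 4 missed the fold threshold at both ages, with log2 fold changes between −0.44 (Dpysl3 at 29M) and −0.11 (Arhgap35 at 24M). Arhgap35 also missed the adjusted p at both ages (edgeR adjusted p = 0.111 and 0.0716), and Lrp4 did so at 29M (edgeR adjusted p = 0.0731). Dpysl3 is also in the list of neurogenesis markers, and Ncan in that of lecticans and link proteins. For Enpp6 the 5 highest included Ugt8a (r = 0.94), Arrdc3 (0.90), Isoc1 (0.90) and Celrr (0.90). Ugt8a encodes an enzyme of myelin lipid synthesis and is in the list of mature oligodendrocyte genes.

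Promoters, from 250 bases before to 50 bases after the start in RefSeq (GRCm38.p6), were listed for 8 of the 10 genes and not for Gpr17 or Bcas1. On both strands, the E-box letters CANNTG were found in 5 of 8 (72.3% of all 32851 promoters), and their form CAGCTG in 1 of 8, Lhfpl3 (16.3% of all). The SOX core letters ACAAAG were found in 0 of 8 (18.7% of all) and ACAAT in 4 of 8, Neu4, Enpp6, Cspg4 and Olig2 (31.0% of all).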

How the data were processed

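Hippocampal polyA RNA was measured in 17 libraries. The authors aligned reads with STAR 2.3.0 to GRCm38.p2, tallied them over genes with HTSeq in its intersection-nonempty mode and deposited whole-number counts that were not normalized. The mode was the only HTSeq setting named as changed from the default, and the annotation release used for counting was not given in the sources used here. Library lines naming no gene (23.9% to 40.3% of each library) were left out. Names, positions and exon lengths came from GENCODE.

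In R 4.3.3, the quasi-likelihood test of edgeR 4.0.16 was run on the deposited counts, with TMM scaling and filterByExpr. The 24M and 29M samples were set against the 3M samples sequenced the same way, with Benjamini-Hochberg adjustment over all genes tested. Standard errors were derived from the F statistic. The edgeR and DESeq2 fits, and no other steps, were also tested on simulated data, with changes larger than that of Gpr17. DESeq2 1.42.0, other filters and scaling, thinning to 9213474 counts, a replicate block, and each library left out were alternatives. The labels number the samples without naming animals, so p-values measure the spread between these samples. The depth limits the precision for Bmp4, with 27 to 84 counts per sample.

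The 24M replicates 1 and 4 differed by a ratio of 0.406 of the counting noise, against 1.23 or more for any other pair, and their rounded mean was used. The genes, lists and tests were chosen with earlier results of these data known. The text names all listed genes, each other list gene that was called, the 2 genes with the highest mean CPM of the PDGF, BMP, sialidase, ENPP and lectican lists, and the 5 genes most like Gpr17 and Enpp6 (Pearson correlation of log2(CPM + 0.5)), except 2 genes that are not reported here. Lims2, Gm42418 and list genes given with values that were not called and are outside this rule were named after their values had been seen.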

Additional observations from a re-analysis of the deposited data

Results flagged for a closer look

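In 3 of 68 groups of 5 samples, the highest or lowest sample stood far from the rest by Dixon's ratio, the gap to its nearest neighbour divided by the range of the group. Chance gives about 3.4 such groups. The log2 ratio of Enpp6 to Olig2 was low in the 24M replicate 5 (Dixon's ratio 0.853). The summed CPM of the other BMP ligands was low in the 3M single-end replicate 3 (Dixon's ratio 0.725, with 108 CPM against a group median of 120 CPM). The summed CPM of the striatum markers was high in the 3M single-end replicate 4 (Dixon's ratio 0.842), the library in which Gpr17 was the lowest of its group.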

How the results depend on the processing

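Gpr17 stayed called lower under all 21 alternatives at 24M and all 14 at 29M, with log2 fold changes of −1.05 to −0.96 and −1.01 to −0.86 when each library was left out and of −1.08 to −0.93 and −1.01 to −0.95 under the others. The other 8 genes were called in none of these. Leaving out each library turned the sign of some log2 fold changes near 0, with ranges of −0.069 to 0.017 (Cspg4) and −0.022 to 0.076 (Olig2) at 24M, and of −0.047 to 0.087 (Vcan), −0.196 to 0.048 (Olig2), −0.17 to 0.13 (Enpp6) and −0.43 to 0.20 (Lum) at 29M. The log2 ratio of Enpp6 to Olig2 at 29M ranged over −0.091 to 0.247.

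Over all genes, calls lower and higher at 24M ranged over 28 to 174 and 91 to 394 with a library left out (100 and 210 with all). The lowest of these were without the 24M replicate 2 and the highest without the 3M single-end replicate 5. At 29M they ranged over 7 to 27 and 113 to 207 (17 and 202 with all). The fit of all 4 groups gave 173 and 345 at 24M and 3 and 83 at 29M, the pair left out gave 51 and 112, no filter gave 73 and 368 at 29M, thinning gave 11 lower at 29M, and no fold threshold gave 371 and 504 at 24M and 100 and 351 at 29M. The cause was not tested.

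Replicate numbers did not pair the samples, since correlations of same-numbered samples were −0.22 to 0.05 at 24M and −0.10 to 0.11 at 29M. With the replicate number as a block, the log2 fold change of Gpr17 was −1.08 (24M) and −0.96 (29M) (edgeR adjusted p = 0.00143 and 2.07e-05). The block gave 101 lower and 171 higher calls at 24M (150 and 313 for the same 6 libraries without it) and 22 and 203 at 29M. Low counts limited Bmp4, with 27 to 84 counts per sample.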
